A study of Homo sapiens with 6 samples.

Results

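Keratins are the intermediate filament proteins of epithelial cells. Here they are the genes whose symbol is KRT followed by digits and at most a letter A to C, without KRT20, keratin-associated proteins and pseudogenes. Probe sets, the groups of array probes that stand for a transcript, were kept where the platform annotation gives them exactly 1 gene symbol. This left 66 of 49395 probe sets and 46 of 18132 genes. Another 8 keratin genes of the classification used below had no probe set of their own and were not analysed here.

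The arrays compared cells labelled TPC-1, a human papillary thyroid carcinoma line grown in RPMI1640 with serum. The tested cells carried a lentivirus expressing an shRNA against FAM60A, and the control cells one expressing a control shRNA, so both groups share lentiviral infection and shRNA expression. There were 3 Affymetrix arrays per group, 1 per sample. The samples of a group are called independent, but no label says that they came from different cultures, so the p-values speak only of variation among these samples, and that variation may be technical.

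SINHCAF, the present symbol of FAM60A, ran against the labels. Its log2 values were 0.63, 0.57 and 0.60 on the arrays labelled FAM60A shRNA, against -0.58, -0.66 and -0.68 on those labelled control shRNA (log2 difference 1.24, SE 0.038, limma, adjusted p = 1.08e-06). The groups are therefore called by their labels, and "rose" or "fell" below means higher or lower on the arrays labelled FAM60A shRNA, not a response to a measured loss of SINHCAF. The RNA extraction protocol also names DLD1, a colorectal cancer line, in place of TPC-1. All values are log2 expression relative to each probe set's own median over the 6 arrays. They compare arrays and give no level beyond a coarse class, explained with the results by signal.

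A keratin filament is built from pairs of a type I and a type II chain, and cells usually make a type I and a type II keratin together. Simple epithelia, which are a single cell layer, carry KRT8 with KRT18 and often KRT7 and KRT19. Stratified epithelia such as epidermis carry other pairs, among them KRT5 with KRT14 in the basal layer and KRT1 with KRT10 above it. A further set of keratins belongs to the hair shaft and to the sheaths of the hair follicle. Follicular thyroid cells are a simple epithelium, and KRT19 is a marker used in the diagnosis of papillary thyroid carcinoma.

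The keratins of simple epithelia rose together on the arrays labelled FAM60A shRNA, while most keratins of skin and hair did not pass the test. In all, 9 of the 46 keratins rose, 5 fell and 32 did not pass (limma, n = 3 per group, adjusted p under 0.05 over all genes). Of all genes, 44.9% passed in either direction, 19.8% higher and 25.0% lower, beside 30.4% of the keratins in either direction. The 3 values of one label lay apart from the 3 of the other in 16 of the 46 keratins, or 34.8%, against 53.2% of all genes. Their median log2 difference was 0.024, beside -0.012 over all genes. Leaving out 1 array gave 8 to 10 keratins higher and 3 to 4 lower. The count lower was 3 without replicate 2 or 3 labelled control shRNA, and likewise 3 without replicate 1 or 2 labelled FAM60A shRNA.

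**Figure D1:**
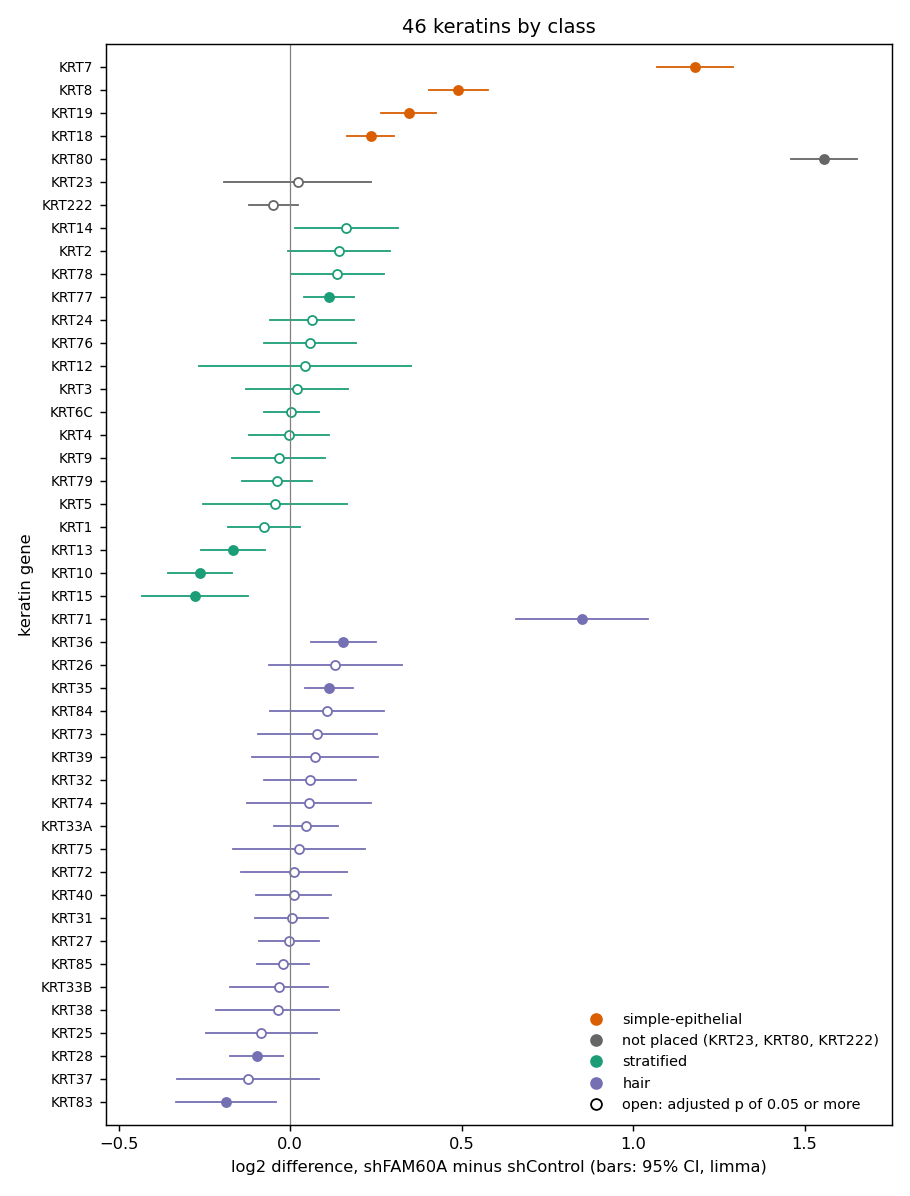
Log2 difference (FAM60A shRNA label minus control shRNA label, x axis) of each of the 46 keratins (y axis), by class, with 95% confidence intervals from limma (n = 3 arrays per group). All 4 simple-epithelial keratins lie above 0, KRT80 is the largest at 1.56, KRT71 stands apart among the hair keratins at 0.85, and open points did not pass.

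All 4 simple-epithelial keratins measured rose, with log2 differences of 0.23 to 1.18 and a median of 0.42. KRT7, a type II keratin of glandular and ductal epithelia, had log2 values of 0.60, 0.53 and 0.55 on the arrays labelled FAM60A shRNA and -0.64, -0.53 and -0.69 on those labelled control shRNA. The groups lay far apart and the signal was 2.27-fold higher (95% confidence interval 2.10 to 2.45, adjusted p = 2.79e-06, limma). KRT8, the type II keratin common to simple epithelia, had 0.28, 0.24 and 0.21 on the arrays labelled FAM60A shRNA and -0.21, -0.29 and -0.25 on those labelled control shRNA. Its groups did not overlap, and the difference of 0.49 (SE 0.036) was 1.41-fold (1.32 to 1.49, adjusted p = 3.56e-05, limma).

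KRT18, the type I partner of KRT8, had log2 values of 0.10, 0.13 and 0.12 on the arrays labelled FAM60A shRNA and -0.12, -0.13 and -0.11 on those labelled control shRNA. The labels did not overlap, and the rise of 0.23 (SE 0.029) was 1.18-fold (1.12 to 1.23, limma, adjusted p = 0.000434). KRT19, a type I keratin that lacks most of the tail found in other keratins, had 0.19, 0.21 and 0.14 on the arrays labelled FAM60A shRNA and -0.14, -0.17 and -0.18 on those labelled control shRNA. It rose 1.27-fold (1.20 to 1.34, limma, adjusted p = 0.000143), again without overlap.

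**Figure D2:**
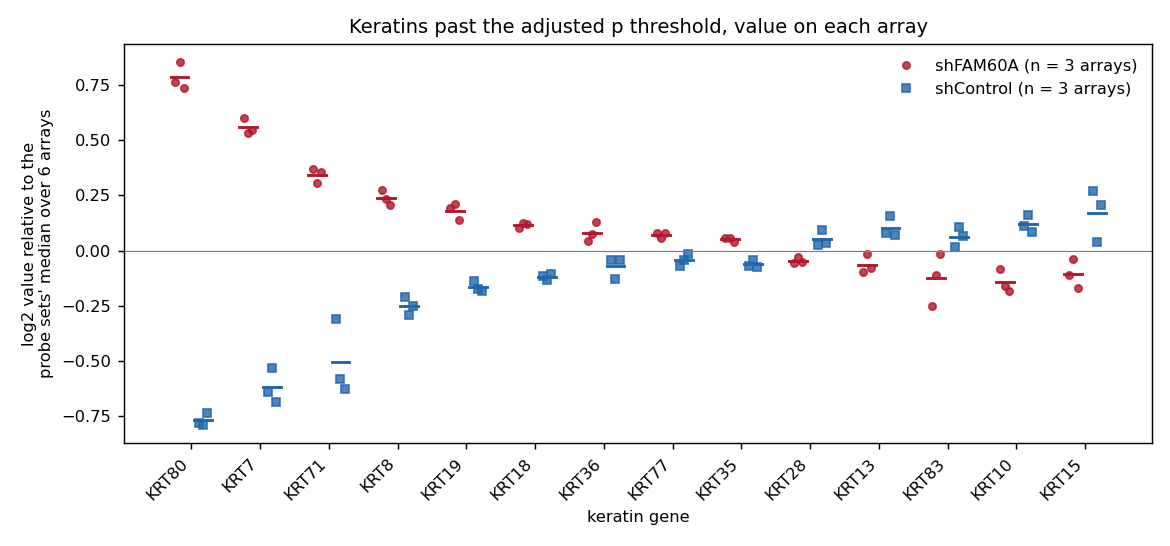
Log2 value on each array, relative to the probe sets' median over the 6 arrays (y axis), for the 14 keratins past the threshold (x axis), with arrays labelled FAM60A shRNA left (circles) and control shRNA right (squares) for each gene and bars at the group means. KRT80 and KRT7 are separated by more than 1 unit, the other genes by less, and in KRT71 and KRT15 a control array lies nearer to the other label than the rest of its group.

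The partners KRT8 and KRT18 differed in the size of their measured rise on these arrays. The log2 ratio of KRT8 to KRT18, set to the same zero, was 0.17, 0.11 and 0.086 on the arrays labelled FAM60A shRNA and -0.094, -0.16 and -0.15 on those labelled control shRNA. The ratio was thus higher by 0.26 on the arrays labelled FAM60A shRNA, with no overlap (two-sided exact permutation test, p = 0.1, the smallest that 3 against 3 arrays allow). The ratio of KRT7 to KRT8 was higher by 0.69 in the same direction, also without overlap and with the same exact p. These ratios rest on the probe sets chosen by the platform. The 8 probe sets of KRT8 had log2 differences from 0.31 to 0.61 and the 2 of KRT18 had 0.22 and 0.25. Probe sets of the same gene on the same arrays are not independent measurements, so these ranges only describe the probes. All 10 carry the suffix x_at, which marks probes that can also bind similar sequences. KRT8 and KRT18 have many processed pseudogenes, so transcripts of those copies cannot be told apart from theirs on these probes. Without probe sets of that kind, KRT7 and KRT19 alone remained of the simple-epithelial class, with a median of 0.76.

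KRT80 rose most of all keratins. It encodes a type II keratin found in many epithelia and was not placed in a class. Its log2 values were 0.77, 0.85 and 0.74 on the arrays labelled FAM60A shRNA, against -0.78, -0.79 and -0.74 on those labelled control shRNA. The arrays of one label differed by little beside the gap between labels, and the signal was 2.94-fold higher (95% confidence interval 2.75 to 3.14, limma, adjusted p = 6.44e-07). KRT80 ranked 50 among all genes by its difference and KRT7 ranked 134. Of all genes 1.20% rose at least 2-fold, and of the 46 keratins these 2 did. The other unplaced members, KRT23 (log2 difference 0.022, 95% confidence interval -0.19 to 0.24) and KRT222 (-0.049, -0.12 to 0.022), did not pass.

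Of the 39 keratins of stratified epithelia and hair, 4 rose, 5 fell and 30 did not pass, which is 23.1% past the threshold beside 44.9% of all genes. Their median log2 difference was 0.011, and it stayed close to 0 whether stratified (0.0029, 17 genes) or hair keratins (0.018, 22 genes) were taken alone. KRT10, the suprabasal type I keratin of epidermis, fell. Its log2 values were -0.084, -0.16 and -0.18 on the arrays labelled FAM60A shRNA and 0.11, 0.16 and 0.084 on those labelled control shRNA. The labels did not overlap, and the difference of -0.26 (SE 0.040) passed (limma, adjusted p = 0.00122). KRT10-AS1, an antisense gene at this locus, stood at a log2 difference of -0.15, which did not pass (limma, adjusted p = 0.114).

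KRT15, a basal type I keratin, also fell, with -0.11, -0.039 and -0.17 on the arrays labelled FAM60A shRNA and 0.27, 0.039 and 0.21 on those labelled control shRNA. Replicate 2 of the control label lay closest to the other group, and the difference was -0.28 (SE 0.066, limma, adjusted p = 0.0106). KRT13, of internal stratified epithelia such as the oesophagus, fell by 0.17 on the log2 scale (limma, adjusted p = 0.0111). Its values were -0.098, -0.014 and -0.078 on the arrays labelled FAM60A shRNA and 0.081, 0.16 and 0.070 on those labelled control shRNA, without overlap. Its 3 probe sets stood at -0.33, -0.19 and 0.019. Only that at -0.33 passed by itself, so the fall rests on part of the probes. That probe set lay in the lowest level class, which is explained below and held 16 of 17 control tags without a target. Without the lowest class only the probe set at -0.19 remained for KRT13. It passed in that fit over genes (limma, adjusted p = 0.041) but not in the fit over all probe sets (limma, adjusted p = 0.0657). KRT77, a type II keratin described in sweat gland ducts, rose by 0.11 (limma, adjusted p = 0.0199), with 0.079, 0.056 and 0.080 on the arrays labelled FAM60A shRNA and -0.070, -0.043 and -0.014 on those labelled control shRNA. It did not pass when control replicate 1 or 2 was left out, nor when FAM60A shRNA replicate 1 or 3 was. Its log2 difference over the arrays left out in turn was 0.10 to 0.13. The 2 probe sets of KRT77 lay in the lowest level class, so its signal may be near background.

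The remaining 13 stratified keratins did not pass. The basal pair had log2 differences of -0.043 (95% confidence interval -0.25 to 0.17) for KRT5 and 0.16 (0.014 to 0.31) for KRT14, whose adjusted p was 0.0756 (limma). KRT1 (-0.077) and KRT2 (0.14), of the suprabasal epidermis, did not pass, nor did KRT4 (-0.0048), the partner of KRT13 in internal epithelia. KRT6C, of the group that skin makes after wounding, had a log2 difference of 0.0029. KRT3 (0.020) and KRT12 (0.042), the pair of the cornea, and KRT9 (-0.034), of palm and sole skin, did not pass either. The other 4, KRT24, KRT76, KRT78 and KRT79, lay between -0.039 and 0.14.

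KRT71, a type II keratin of the inner root sheath of the hair follicle, was the hair keratin with the largest change. It had log2 values of 0.37, 0.31 and 0.36 on the arrays labelled FAM60A shRNA and -0.31, -0.58 and -0.63 on those labelled control shRNA. Replicate 1 of the control label stood above the other control arrays, yet the groups did not overlap. The signal was 1.80-fold higher (95% confidence interval 1.58 to 2.06, limma, adjusted p = 0.000119), and the log2 difference was 0.79 to 0.95 when 1 array was left out. The other type II keratins of the inner root sheath, KRT72 (0.011), KRT73 (0.079) and KRT74 (0.054), did not pass, nor did its type I keratins KRT25 (-0.085), KRT26 (0.13) and KRT27 (-0.0031). The remaining 11 hair keratins, KRT31, KRT32, KRT33A, KRT33B, KRT37, KRT38, KRT39, KRT40, KRT75, KRT84 and KRT85, did not pass and lay between -0.12 and 0.11.

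The other 4 hair keratins past the threshold changed by less than 0.2 on the log2 scale. KRT36, a type I keratin of the hair shaft, rose by 0.15, with 0.043, 0.073 and 0.13 on the arrays labelled FAM60A shRNA and -0.043, -0.13 and -0.043 on those labelled control shRNA (limma, adjusted p = 0.0165). KRT35, another type I keratin of the shaft, rose by 0.11, with 0.056, 0.058 and 0.041 on the arrays labelled FAM60A shRNA and -0.070, -0.041 and -0.073 on those labelled control shRNA (adjusted p = 0.016, limma). KRT83, a type II keratin of the shaft, had -0.25, -0.11 and -0.014 on the arrays labelled FAM60A shRNA and 0.014, 0.11 and 0.064 on those labelled control shRNA (log2 difference -0.19, limma, adjusted p = 0.0445). KRT28, of the inner root sheath, had -0.058, -0.027 and -0.053 on the arrays labelled FAM60A shRNA and 0.027, 0.093 and 0.035 on those labelled control shRNA (log2 difference -0.098, limma, adjusted p = 0.0453).

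These 4 calls did not hold in every fit that left out 1 array, although the differences kept their direction. KRT36 did not pass without control replicate 2 or FAM60A shRNA replicate 3 (lowest log2 difference 0.13), nor KRT35 without control replicate 3 or FAM60A shRNA replicate 2 (lowest 0.11). KRT83 did not pass without control replicate 1, 2 or 3, or without FAM60A shRNA replicate 1 or 2 (-0.21 to -0.12). KRT28 did not pass whichever of the 6 arrays was left out (-0.11 to -0.077). With the arrays quantile normalized again, KRT83 (-0.18, adjusted p = 0.057, limma) and KRT28 (-0.080, adjusted p = 0.0915, limma) did not pass, although the difference of KRT83 was about as large. With the largest-variance probe set, KRT83 (adjusted p = 0.0622), KRT28 (adjusted p = 0.107) and KRT35 (adjusted p = 0.0557) did not pass (limma). KRT28 also did not pass after cyclic loess (adjusted p = 0.135), without x_at and s_at probe sets (adjusted p = 0.0647) and with the replicate number as a block (adjusted p = 0.0526, limma). The calls of KRT7, KRT8, KRT18, KRT19, KRT80, KRT71, KRT10, KRT13 and KRT15 held in every alternative in which they had a value.

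Keratins were also sorted by a coarse level. The deposited values keep the rounding step of the single-precision numbers they were made from, and that step gives the range of a probe set's log2 level before centring, 2 to 4, 4 to 8 or 8 to 16, with the lower range where arrays lie on both sides of a bound. Control tags without a target numbered 17, of which 16 were of class 2 to 4 and 1 of class 4 to 8, whereas all 9 hybridisation controls fell in that of 8 to 16. Background probes rise with their GC content, and 9 of 23 such probe sets lay in the class of 4 to 8 and 2 in the highest. A class of 4 to 8 thus does not show that a transcript was present.

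Among the 66 keratin probe sets, 18 lay in the highest class, 30 in the middle and 18 in the lowest. In the highest class 13 were higher and 1 lower on the arrays labelled FAM60A shRNA, in the middle class 3 and 1, and in the lowest class 1 and 1 (limma on probe sets, where 40.8% of all passed in either direction). The keratin share past the threshold was 77.8%, 13.3% and 11.1% by falling class, beside 64.8%, 45.3% and 11.2% of all named probe sets of the same classes. Of the 13 higher probe sets in the highest class, 8 were those of KRT8 and 2 those of KRT18, which are not independent measurements. The others were the single probe sets of KRT19, KRT71 and KRT80. The single probe set of KRT7 lay in the middle class, so its lower group may lie near background.

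**Figure D3:**
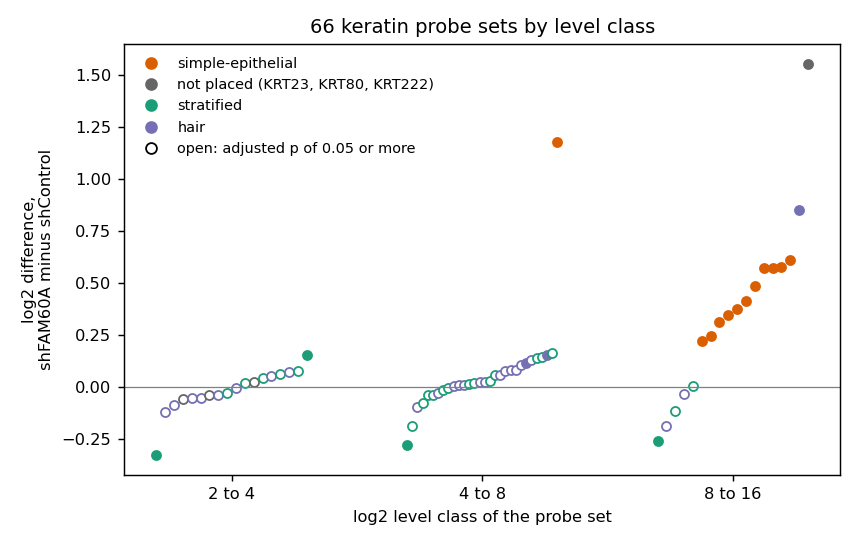
Log2 difference (FAM60A shRNA label minus control shRNA label, y axis) of the 66 keratin probe sets, sorted within each log2 level class (x axis), coloured by keratin class and filled where the probe set passed. The probe sets of KRT8, KRT18 and KRT19 lie in the highest class from 0.22 to 0.61, below KRT71 (0.85) and KRT80 (1.56). That of KRT7 (1.18) lies in the middle class. Most stratified and hair probe sets lie in the 2 lower classes, most of them around 0, and some lie in the highest.

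Counted by gene, 10 of the 46 keratins had a probe set in the highest class, namely KRT8, KRT18, KRT19, KRT80, KRT71, KRT10, KRT83, KRT4, KRT5 and KRT33B. Of these 10, 5 rose, 2 fell and 3 did not pass, and of the other 36 keratins 4 rose, 3 fell and 29 did not pass. That is 70% and 19.4% past the threshold, beside 44.9% of all genes, a share not matched for signal. Of the 32 that did not pass, 10 had probe sets in the lowest class only, 19 reached the middle class and 3 the highest. The 4 simple-epithelial keratins had 3 members in the highest class and the 39 of skin and hair had 6. A comparison of these classes by their differences is therefore also one of probe sets at different signal. With the highest class alone, the median of the simple-epithelial keratins was 0.34 (3 genes) and that of the stratified and hair keratins -0.075 (6 genes).

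Type I and type II keratins were close in the share that passed, and both shares lay below the 44.9% of all genes. Of 25 type I keratins, 4 rose and 4 fell, which is 32% with a median log2 difference of 0.0097. Of 21 type II keratins, 5 rose and 1 fell, which is 28.6% with a median of 0.054. The 3 largest rises, of KRT80, KRT7 and KRT71, were all of type II, and 4 of the 5 falls, of KRT10, KRT13, KRT15 and KRT28, were of type I. No test of the types against each other was made. Within the simple epithelium, the type II members KRT7 (1.18) and KRT8 (0.49) had larger log2 differences than the type I members KRT19 (0.34) and KRT18 (0.23).

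Type II keratin genes lie in a cluster on chromosome 12, together with KRT18, and the other type I genes lie in a cluster on chromosome 17. Neighbours did not always move alike. KRT80 and KRT7, with the largest rises, stand next to each other in the keratin order at one end of the chromosome 12 cluster, and KRT8 and KRT18 are neighbours at the other end. Between them, KRT71 rose while the genes beside it, KRT5 (-0.043) and KRT74 (0.054), did not pass. On chromosome 17, KRT19 rose and its neighbour in keratin order, KRT15, fell. The log2 ratio of KRT19 to KRT15 was 0.30, 0.25 and 0.31 on the arrays labelled FAM60A shRNA and -0.41, -0.21 and -0.39 on those labelled control shRNA, a difference of 0.62. This pair was chosen because its members changed in opposite directions, so the ratio is a description. Its p of 0.1 (two-sided exact permutation test), the smallest that 3 against 3 arrays allow, follows from that choice and adds no support.

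**Figure D4:**
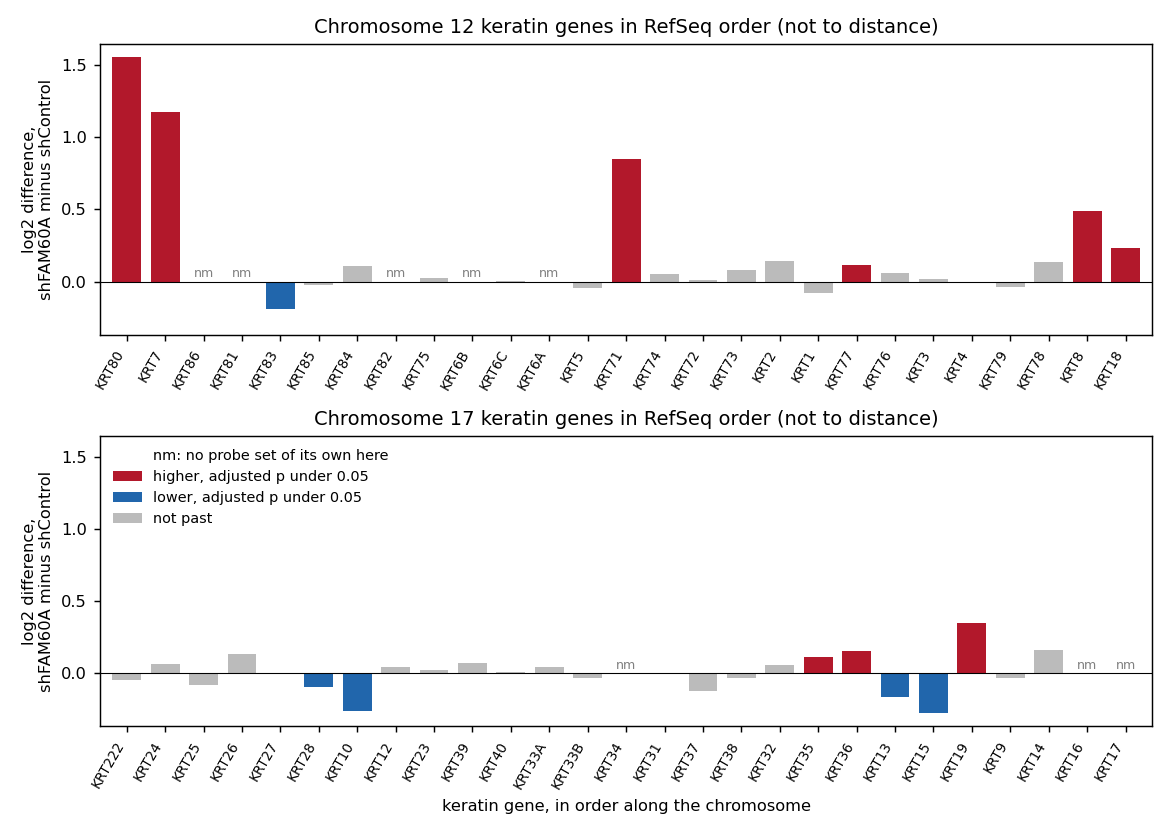
Log2 difference (FAM60A shRNA label minus control shRNA label, y axis) of keratin genes in their RefSeq order along chromosome 12 (top) and chromosome 17 (bottom), spaced evenly. Bars of genes past the threshold are red (higher) or blue (lower), "nm" marks genes with no probe set of their own here, and the rises on chromosome 12 stand at both ends, at KRT71 and at KRT77, while on chromosome 17 KRT13 and KRT15 lie below 0 beside KRT19 above it.

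The stretch before a RefSeq start is shown for 3 members that differ in direction, KRT8 and KRT71, which rose, and KRT10, which fell. Any other start of these genes was not looked at, so a window need not be the promoter in use. Each is the 250 bases before the RefSeq start in GRCh38.p14, read 5′ to 3′ on the gene's strand, the minus strand in all 3, at chr12:52926470-52926719 for KRT8, chr12:52553146-52553395 for KRT71 and chr17:40822615-40822864 for KRT10. Capitals mark TATAAA, the letters of a promoter element known to help place the start of transcription.
KRT8: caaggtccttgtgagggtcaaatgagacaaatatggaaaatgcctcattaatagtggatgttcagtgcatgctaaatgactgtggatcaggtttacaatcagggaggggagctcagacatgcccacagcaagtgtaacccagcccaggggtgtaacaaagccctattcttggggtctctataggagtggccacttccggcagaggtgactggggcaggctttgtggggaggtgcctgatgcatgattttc
KRT71: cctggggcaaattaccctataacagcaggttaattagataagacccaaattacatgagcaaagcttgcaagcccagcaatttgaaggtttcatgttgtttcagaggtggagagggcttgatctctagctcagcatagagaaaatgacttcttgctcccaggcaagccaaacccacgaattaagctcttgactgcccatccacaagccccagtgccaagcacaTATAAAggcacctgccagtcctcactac
KRT10: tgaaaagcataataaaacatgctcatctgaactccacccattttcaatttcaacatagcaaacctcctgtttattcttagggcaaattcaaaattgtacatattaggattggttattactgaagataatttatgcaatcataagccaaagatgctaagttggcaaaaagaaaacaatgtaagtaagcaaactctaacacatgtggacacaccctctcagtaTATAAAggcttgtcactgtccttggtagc

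TATAAA begins 28 bases before the start in KRT71 and 29 bases before it in KRT10, and neither strand of the KRT8 window holds it. The letters were therefore found before a keratin that rose and before one that fell. Promoter sequences were at hand for 31 of the 46 keratins. TATAAA was found on either strand in 18 of the 31, against 10.7% of all 35116 promoters of the same length, in 14 of 20 hair keratins and 4 of 10 stratified keratins. GGGCGG, the GC box bound by SP1, was found in 4 of the 31 against 42.6% of all promoters. CCAAT was found in 14 of the 31 against 32.0%, and TGANTCA, an AP-1 sequence, in 0 of the 31 against 6.6%. Each motif was counted on both strands by itself, so matches may overlap, and a match says only that the letters occur. Among the 14 keratins past the threshold, 6 had a promoter sequence, and KRT7, KRT18, KRT19 and KRT80 did not. The motif shares thus describe mostly hair and stratified keratins.

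Genes that anchor keratin filaments were measured on the same arrays. Plakins and plaque proteins tie keratins to desmosomes, the spot-like junctions between epithelial cells. The list held 13 measured genes that link or organise keratins, not all of them of desmosomes. In it 9 rose and 2 fell, which is 84.6% past the threshold in either direction beside 44.9% of all genes. Their median log2 difference was 0.31 beside -0.012 over all genes. In this list 7 genes had a probe set in the highest level class and 0 lay in the lowest class only. Among all named probe sets, 64.8% passed in the highest class and 11.2% in the lowest. The share of all genes is thus not matched to this list for signal. This list and those that follow were also chosen with earlier results of these data known, so their shares describe the lists and test nothing. PPL, which encodes periplakin, had 0.61, 0.60 and 0.62 on the arrays labelled FAM60A shRNA and -0.60, -0.62 and -0.63 on those labelled control shRNA (log2 difference 1.23, SE 0.029, limma, adjusted p = 4.39e-07). Desmoplakin DSP (0.67), plakophilin PKP2 (0.67) and FAM83H (0.63), which is known to bear on keratin filament organisation, also rose. EPPK1 (-0.16) and the plakophilin PKP4 (-0.11) were the 2 that fell. Periplakin, desmoplakin and plakophilin bind keratins or the desmosomal plaque directly.

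Of 15 other intermediate filament genes, 3 rose and 2 fell, which is 33.3% past the threshold beside 44.9% of all genes, with a median of -0.013 beside -0.012. LMNA, which encodes the nuclear lamins A and C, rose by 0.46 (limma, adjusted p = 2.02e-05), and so did BFSP1 (0.43), a filament protein of the eye lens, and PRPH (0.26), of peripheral neurons. PRPH did not pass without control replicate 2 or 3 or FAM60A shRNA replicate 1 or 3 (log2 difference 0.20 to 0.24). LMNB2 fell by 0.17 over its 2 probe sets, but with the probe set of the highest level class alone its log2 difference was 0.33. VIM, the vimentin of mesenchymal cells, had a log2 difference of -0.19 and was the other gene that fell (limma, adjusted p = 0.0337). Of its 2 probe sets, 1 lay in the lowest level class and 1 in the middle class, so its signal may be near background. Its values were -0.044, -0.24 and -0.054 on the arrays labelled FAM60A shRNA and 0.037, 0.11 and 0.075 on those labelled control shRNA. FAM60A shRNA replicate 2 thus stood apart, and no alternative was examined for VIM.

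Of 19 measured transcription factors known to act on keratin genes or epithelial differentiation, 12 rose and 2 fell, which is 73.7% past the threshold in either direction beside 44.9% of all genes. Their median log2 difference was 0.36. Here 10 genes had a probe set in the highest level class and 1 lay in the lowest class only. The share of all genes is again not matched for signal, and this list too was chosen with earlier results known. ELF3, an epithelial ETS factor, had 1.16, 1.10 and 1.15 on the arrays labelled FAM60A shRNA and -1.19, -1.19 and -1.18 on those labelled control shRNA (limma, adjusted p = 5.65e-08). GRHL3 (2.29), a grainyhead factor of the epidermal barrier, CEBPA (1.54) and the intestinal homeobox factor CDX2 (1.0) also rose. The 2 that fell were OVOL2 (-0.52) and GRHL1 (-0.19). In contrast, of 22 genes of the cornified envelope and late epidermal differentiation, 1 rose, TGM1 (0.25), 0 fell (limma, with 5 at an unadjusted p under 0.05), and the median was 0.045, with 10 of the 22 in the lowest level class only. That is 4.55% past the threshold beside 44.9% of all genes, and TGM1 did not pass without FAM60A shRNA replicate 2 (0.21) or 3 (0.23).

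Markers of cell types were read beside these keratins. Of 7 thyroid markers measured, 0 rose and 0 fell (limma, with 1 at an unadjusted p under 0.05), beside 44.9% of all genes past the threshold. Of these markers, 0 had a probe set in the highest level class and 2, TSHR and DUOX2, lay in the lowest class only. Their summed log2 value was -0.19 to -0.055 on the arrays labelled FAM60A shRNA and 0.041 to 0.20 on those labelled control shRNA. Of 8 intestinal markers, 4 rose and 0 fell (limma, with 5 at an unadjusted p under 0.05), which is 50% past the threshold beside 44.9% of all genes, with a summed value of 1.14 to 1.30 on the arrays labelled FAM60A shRNA and -1.50 to -0.97 on those labelled control shRNA. CDX2 (1.0) and the intestinal cadherin CDH17 (0.82) had probe sets in the highest class, whereas LGALS4 (0.16), MUC2 (0.18), VIL1 and FABP1 lay in the lowest class only. MUC2 did not pass without control replicate 3 or FAM60A shRNA replicate 2 or 3 (log2 difference 0.14 to 0.17). CDX1 (0.15, limma, adjusted p = 0.0535), FABP1 (0.11), VIL1 (0.049) and GPA33 (0.030) did not pass. CDX2 and CDH17, whose log2 differences were the largest of the list, were higher on the same arrays as the simple-epithelial keratins, and their part in the keratin result was not tested.

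Markers of other cells gave little. Of 4 squamous basal markers measured besides KRT5 and KRT14, 0 rose and 0 fell (limma, with 0 at an unadjusted p under 0.05), beside 44.9% of all genes past the threshold. Their summed value was -0.11 to 0.021 on the arrays labelled FAM60A shRNA and -0.099 to 0.20 on those labelled control shRNA. Of 8 fibroblast markers, 0 rose and 0 fell (limma, with 0 at an unadjusted p under 0.05), again beside 44.9% of all genes. Of these 8, 0 had a probe set in the highest class, and 6 lay in the lowest class only. CD68 (0.26) and CD79A (0.14) rose and 0 fell among 7 leukocyte markers (limma, with 2 at an unadjusted p under 0.05), which is 28.6% past the threshold beside 44.9% of all genes. CD79A did not pass without control replicate 1 or FAM60A shRNA replicate 2 or 3, nor with its largest-variance probe set, without the lowest level class or without x_at and s_at probe sets (log2 difference 0.085 to 0.24). PTPRC (-0.023), found on all leukocytes, did not pass. In bulk RNA, fewer cells of a type and less RNA per cell cannot be told apart.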

How the data were processed

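Biotin-labelled RNA from 6 samples was measured on Affymetrix arrays, per the labels' protocols. The authors made the deposited log2 values with RMA, per the submitters' processing notes. Each probe set is centred on its median over the 6 arrays (medians within 5e-07 of 0), so levels are lost except for their class. No label gives the base of the logarithm, taken as 2 because RMA gives log2.

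Gene values are means of the probe sets with 1 symbol (44994 of 49395, while 1832 had several and 2569 none). All 18132 genes were fitted by limma 3.58.1 (lmFit, eBayes; R 4.3.3), checked on simulated data, with Benjamini-Hochberg adjustment over all genes and a threshold of 0.05. A positive difference means higher on the FAM60A shRNA label. The number of arrays limits the precision. Ratios between keratins were compared by exact permutation over arrays.

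The members, keratin classes and 9 related lists were chosen with earlier results of these data known. All members were named, with array values for the simple-epithelial keratins and those past the threshold, and of each list at most 4 genes past it, by p. VIM, OVOL2, GRHL1, EPPK1, PKP4 and list members that did not pass were named after their values were seen. Alternatives were not examined for these genes. Alternatives changed the probe sets, their summary, the normalization, the variance moderation or the pairing, or left out 1 array. Promoter sequences are from RefSeq, GRCh38.p14.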

Additional observations from a re-analysis of the deposited data

Results flagged for a closer look

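A probe set listed for 4 symbols, 3 of them pseudogenes, was outside the gene values because it cannot be assigned to 1 gene. It was higher on the arrays labelled FAM60A shRNA, with log2 values of 0.075, 0.065 and 0.13, than on those labelled control shRNA, with -0.065, -0.066 and -0.18. The log2 difference was 0.194 (SE 0.048, limma on probe sets, adjusted p = 0.0152), without overlap between the labels. It drew attention as a signal in data that no comparison used, and it lies in the lowest level class, that of 16 of 17 control tags without a target. The other keratin probe set with more than 1 symbol stood at -0.041, which did not pass (limma, adjusted p = 0.525).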

How the results depend on the processing

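With the highest level class alone, which leaves 10 keratins and 6620 genes, 5 keratins were higher and 2 lower and 4972 genes passed. The class medians of log2 difference were then 0.34 (simple-epithelial), -0.075 (stratified and hair), 0.10 (type I) and 0.25 (type II). The probe set of largest variance gave 3 keratins lower and a simple-epithelial median of 0.48. Without probe sets named x_at or s_at, the simple-epithelial median was 0.76 over 2 genes and that of type I -0.018. Without the lowest level class, the medians of type I and type II were 0.052 and 0.026. Arrays quantile normalized again gave 3 keratins lower, with medians of 0.029 for stratified and hair and 0.029 for type I keratins, and cyclic loess gave 0.033, 0.033 and 0.082 for type II. So the small type II median did not stay above that of type I in every setting, while the simple-epithelial median stayed at 0.34 or more. The cause of these shifts was not tested, beyond the fewer genes that a filter leaves.

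Leaving out 1 array gave 8 to 10 keratins higher, 3 to 4 lower and 7365 to 7700 genes past the threshold. The medians were 0.40 to 0.44 (simple-epithelial), -0.0064 to 0.021 (stratified and hair), -0.0064 to 0.027 (type I) and 0.021 to 0.081 (type II). With the replicate number as a block there were 10 keratins higher, 4 lower and 8170 genes past the threshold. Deviations of arrays of equal number correlated at 0.161, 0.059 and 0.078, so the numbers were not taken as pairs, although every array correlated best with its own number, a hint from the data and not from the design. LMNB2 turned from -0.17 to 0.33 with its probe set of the highest level class alone. Of the 46 keratins, 11 had probe sets in the lowest level class only, that of 16 of 17 control tags without a target.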
